A study of Mus musculus with 3 samples.

Results

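The genes described here encode chemokines, interleukins, the ligands of the tumour necrosis factor (TNF) superfamily, and the receptors of these proteins. They were taken by symbol: every array probe whose platform gene symbol begins with Cxcl, Ccl, Cxcr, Ccr or Il followed by a digit, or with Tnfsf or Tnfrsf, or is Tnf, apart from Cxcl9 and Cxcl10. The rule found 154 genes of the 16593 genes with a named probe, and 216 probes of 25697. RNA came from 3 replicates of 1 group, which the sample titles call induced delta cells, at day 10. All 3 replicates were Rag1-/- mouse pancreas, a genotype that lacks mature T and B cells, given an adenovirus by injection into the gland. The endogenous islets had been removed, the acinar fraction had been digested to single cells, and cells positive for the red fluorescent protein Cherry had been sorted. The extraction protocol calls the sorted cells induced beta cells, the virus's cargo is not named in the labels, and no uninjected, unsorted or Rag1+ sample was analysed, so no comparison between groups was made and no value below shows a change.

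Chemokines are small secreted proteins that draw leukocytes along a gradient, and they bind G protein-coupled receptors. They are named CXC or CC after the spacing of their first cysteines. Interleukins signal mostly through receptor chains coupled to Jak kinases and Stat factors, with the interleukin 1 and 17 families using Myd88 or Traf6 instead, and TNF superfamily ligands bind trimeric receptors that lead to the transcription factor NF-kB or to cell death. In the pancreas, acinar, duct and stellate cells, resident macrophages and islet cells can all make some of these proteins, and injury of the exocrine tissue is known to induce many of them.

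The genes of these families were detected less broadly than the arrays' genes as a whole. A probe was called detected where its deposited detection p, which sets it against the array's negative control beads, fell under 0.05 on each of the 3 arrays. A gene counted as detected through any 1 such probe. By this rule 36 of the 154 genes were detected (23.4%), against a background of 40.9% of all 16593 genes. Another 11 genes were above background on 1 or 2 arrays, and 107 on none. By probe, 42 of 216 were detected (19.4%), where the background over all probes was 33.0%. Genes with more probes have more chances to be called, and the order was the same within each class. Of genes with 1 probe, 19 of 116 were detected (16.4%, against 35.5% of all such genes), and of genes with more, 17 of 38 (44.7%, against 54.3%). Of olfactory receptor genes, a family of the nasal epithelium, 1.8% were detected. These shares describe the arrays and were not tested, since genes of 1 family are not independent.

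Chemokine ligands were detected for 13 of 34 genes (38.2%), of which CC ligands made up 10 of 23 (43.5%), close to the background of 40.9%, and CXC ligands 3 of 11 (27.3%). Chemokine receptors were detected for 2 of 16 genes (12.5%), interleukin ligands for 6 of 35 (17.1%), interleukin receptor chains for 8 of 35 (22.9%), TNF superfamily ligands for 2 of 12 (16.7%) and TNF receptors for 4 of 20 (20.0%). Over all families, ligands reached 21 of 81 (25.9%) and receptors 14 of 71 (19.7%).

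**Figure D1:**
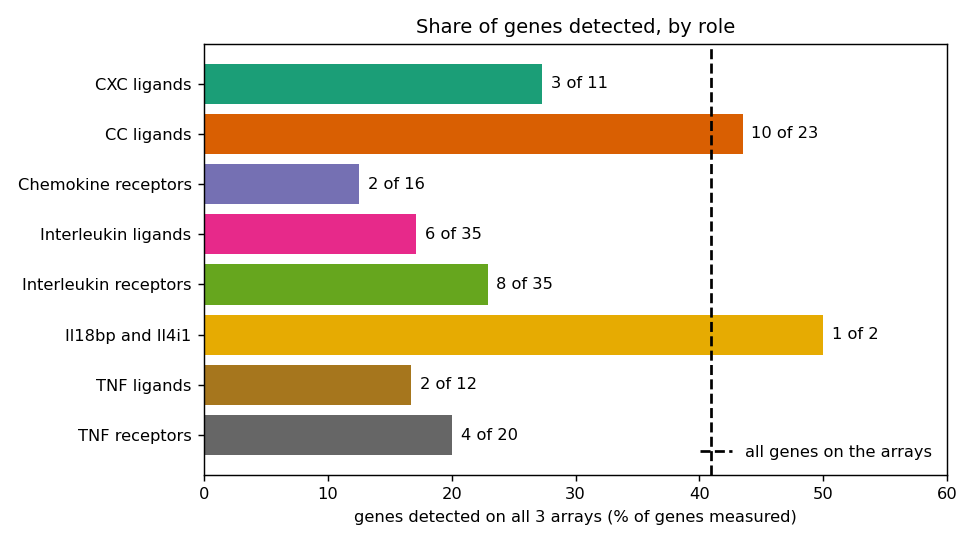
Share of genes detected on all 3 arrays in each role, in percent of the genes measured, with the counts beside the bars and the share over all genes on the arrays (40.9%) as a dashed line. The CC ligands (10 of 23) lie near that line; Il18bp and Il4i1 are a class of 2 genes, and the other roles lie below the line.

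Levels are log2 intensities after background correction and quantile normalization, given for replicates 1, 2 and 3 in that order or as mean ± SD over the 3 arrays (n = 3). On this scale the background limit, the highest level with a detection p of 0.05 or more, was 4.83, 4.77 and 4.75. Probes differ in efficiency, so single genes are not ranked by level, and the next values describe where the probes lay on the scale without comparing amounts of RNA. The median level of the 36 detected genes was 6.14, while that of all detected genes was 6.89. Of the 36, 15 lay within 1 log2 unit of the highest limit (41.7%, against 27.6% of all detected genes), and 5 were above a level of 8 (13.9%, against 31.3%). Whether each replicate is a mouse of its own is not stated in the labels, and the SD may therefore be technical spread.

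Other cells in the sort bear on these genes, since leukocytes and stroma make many of them. Of the macrophage and monocyte markers, 9 of 12 were detected, and the log2 of their mean linear level was 7.61, 7.74 and 7.91 on the 3 arrays. Adgre1, which encodes F4/80, read 8.62, 8.97 and 8.92, while the pan-leukocyte gene Ptprc (4.44, 4.41 and 4.35) and Itgam (4.34 ± 0.019) were at background. Of the other leukocyte lists, 1 of 5 dendritic, 1 of 6 neutrophil, 1 of 7 T and B cell, 1 of 7 natural killer and 0 of 4 mast cell genes were detected. Their lists' levels were 4.53 to 4.66, 4.46 to 4.51, 5.03 to 5.29, 6.88 to 7.10 and 4.36 to 4.42 across the arrays, the natural killer value resting on Prf1 (9.62 ± 0.14) and the T and B cell value on Cd3e (6.89 ± 0.25), which was detected although Rag1-/- mice lack mature T cells. The detected dendritic gene was Zbtb46 (5.26 ± 0.18) and the detected neutrophil gene Elane (4.91 ± 0.097), and Cd79a was above background on 2 arrays. Other genes of these lists, among them S100a8, S100a9, Cd3g, Cd8a, Ncr1 and Cpa3, were on no array above background. Endothelial markers were detected for 2 of 8 genes (5.54 to 5.56), mesenchyme and stellate markers for 4 of 10 (5.58 to 5.74), with Dcn at 7.86 ± 0.13, and duct markers for 3 of 5 (6.48 to 6.58). The acinar list was detected for 9 of 9 genes (13.69 to 13.73), the endocrine list for 10 of 10 (10.20 to 10.23), and the delta cell list for 5 of 6 (11.27 to 11.35), with Sst at 13.81 ± 0.046. Each array reads many cells together, so fewer cells of a type and less RNA per cell cannot be told apart, and the part of each of these cell types in the cytokine values was not tested.

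Among CXC ligands, Cxcl12, Cxcl1 and Cxcl16 were detected. Cxcl12, the ligand of Cxcr4 and a product of stromal cells, read 9.75, 9.85 and 9.82. Cxcl1, which draws neutrophils through Cxcr2, read 8.90, 9.0 and 8.91. Cxcl16, a membrane-bound ligand of Cxcr6 that is also shed, read 8.91, 8.89 and 8.94. The 3 arrays lay within 0.10 log2 units of each other for each of these genes. Cxcl2, a close relative of Cxcl1, was above background on 2 arrays, replicates 1 and 3 (4.96, 4.73 and 4.79), and Cxcl3 (4.27, 4.28 and 4.32), Cxcl5 (4.63 ± 0.099) and Cxcl14 (4.73 ± 0.056, 2 probes) on none.

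Cxcl1, Cxcl2 and Cxcl3 are neighbours on mouse chromosome 5, and their upstream sequences are shown because they carry the same match to an NF-kB site while the calls of the genes differed. The letters are the 250 bases before each gene's start, 5′ to 3′, from RefSeq on the build GRCm38.p6, with Cxcl12 beside them as a detected gene without a match. Capitals mark the TATA box core TATAAA and a form of the NF-kB site, GGG and TTCC separated by any 3 bases, each searched on both strands with overlapping matches counted. Cxcl1 lies at chr5:90890995-90891244, Cxcl2 at chr5:90903649-90903898, Cxcl3 at chr5:90785851-90786100 and Cxcl12 at chr6:117168285-117168534, all on the plus strand.
Cxcl1: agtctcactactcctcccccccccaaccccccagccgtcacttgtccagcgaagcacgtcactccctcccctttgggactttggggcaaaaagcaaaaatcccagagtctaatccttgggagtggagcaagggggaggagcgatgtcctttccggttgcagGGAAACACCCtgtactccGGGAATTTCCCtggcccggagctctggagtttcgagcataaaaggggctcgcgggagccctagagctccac
Cxcl2: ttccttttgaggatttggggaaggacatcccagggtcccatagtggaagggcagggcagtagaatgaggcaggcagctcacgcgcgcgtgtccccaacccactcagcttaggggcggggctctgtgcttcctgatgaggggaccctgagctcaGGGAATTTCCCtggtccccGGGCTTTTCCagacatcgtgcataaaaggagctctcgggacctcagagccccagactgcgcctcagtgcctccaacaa
Cxcl3: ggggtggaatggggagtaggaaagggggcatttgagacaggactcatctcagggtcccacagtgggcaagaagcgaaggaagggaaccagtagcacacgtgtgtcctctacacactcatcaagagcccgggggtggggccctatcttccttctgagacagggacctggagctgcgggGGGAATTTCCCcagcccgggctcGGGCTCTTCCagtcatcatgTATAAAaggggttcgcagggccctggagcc
Cxcl12: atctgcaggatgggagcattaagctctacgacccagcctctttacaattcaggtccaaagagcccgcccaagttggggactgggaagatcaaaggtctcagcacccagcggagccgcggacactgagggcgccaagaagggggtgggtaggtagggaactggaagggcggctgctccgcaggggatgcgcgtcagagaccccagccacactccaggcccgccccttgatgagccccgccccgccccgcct

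The windows of Cxcl1, Cxcl2 and Cxcl3 held 3 matches each, of which a pair overlaps on opposite strands in the run GGGAATTTCCC. That run begins 71 bases before the start in Cxcl1, 97 in Cxcl2 and 73 in Cxcl3. The Cxcl12 window held no match of either motif and 14 CG dinucleotides, beside 10, 9 and 7 in Cxcl1, Cxcl2 and Cxcl3. Over windows of 300 bases (250 before and 50 after the start), the NF-kB form was found for 5 of the 26 detected genes of these families that had a window (19.2%) and for 14 of the 89 others (15.7%). It was found for 6.31% of all 27025 genes with a window in the RefSeq table. Of all detected genes 5556 had a window, and it was found for 7.4% of these. Of all genes not detected 7780 had a window, and it was found for 5.86% of these. The TATAAA shares and CG counts that follow also cover only genes with a window. TATAAA was found for 9 of the 26 (34.6%) and 17 of the 89 (19.1%), where the share was 15.7% over the RefSeq table, 9.43% of all detected genes and 17.8% of all genes not detected. The median count of CG dinucleotides was 9.5 in the 26 and 5 in the 89, against 22 in all detected genes and 10 in all genes not detected. A match is a run of letters and not a measured site, and no test was made.

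Of the 23 CC ligands, 10 genes were detected. Ccl4, also known as MIP-1 beta, read 10.60, 10.60 and 10.57. Ccl3, its relative MIP-1 alpha, read 5.47, 5.22 and 5.39. Ccl5, also known as RANTES, read 6.26, 6.42 and 6.29. These 3 chemokines attract monocytes and T cells. Next came the genes related to the monocyte chemoattractant proteins. Ccl12 read 6.95, 7.53 and 7.16, Ccl7 read 5.95, 6.25 and 6.19, and Ccl8 read 7.12, 7.09 and 7.06. On its brighter probe, Ccl12 was lowest on replicate 1 and highest on replicate 2. Ccl7 had the same order, which was not tested. Ccl9, a mouse chemokine that binds Ccr1, read 6.54, 6.64 and 6.52, and Ccl11, the eosinophil attractant eotaxin, 5.29, 5.35 and 5.11. The remaining 2 are chemokines of epithelia. Ccl25, known from thymus and small intestine, read 6.72, 6.60 and 6.67. Ccl27a, known from skin, read 7.65, 7.70 and 7.70; it has a near-identical copy, Ccl27b, with no named probe here, so its value may include both.

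By position, 8 of the 11 measured CC ligand genes of chromosome 11 were detected, and 2 of the 12 elsewhere, beside 40.9% of all genes. The share over all genes of chromosome 11 was not taken, and the split by position was not tested. In chromosomal order the first run on chromosome 11 is Ccl2, Ccl7, Ccl11, Ccl12, Ccl8 and Ccl1, of which the outer genes Ccl2 (4.46 ± 0.027) and Ccl1 (4.26 ± 0.030) were at background on every array and the 4 between them were detected. The second run is Ccl5, Ccl9, Ccl6, Ccl3 and Ccl4, in which Ccl6 (4.52 ± 0.067) was at background. Elsewhere, Ccl20 (4.34 ± 0.055), Ccl28 (4.34 ± 0.056), Ccl17, Ccl22, Ccl24, Ccl26, Ccl19 and the near-identical Ccl21a, Ccl21b and Ccl21c were on no array above background. Ccl2 had 1 probe, and a signal at background is no proof of a silent gene.

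**Figure D2:**
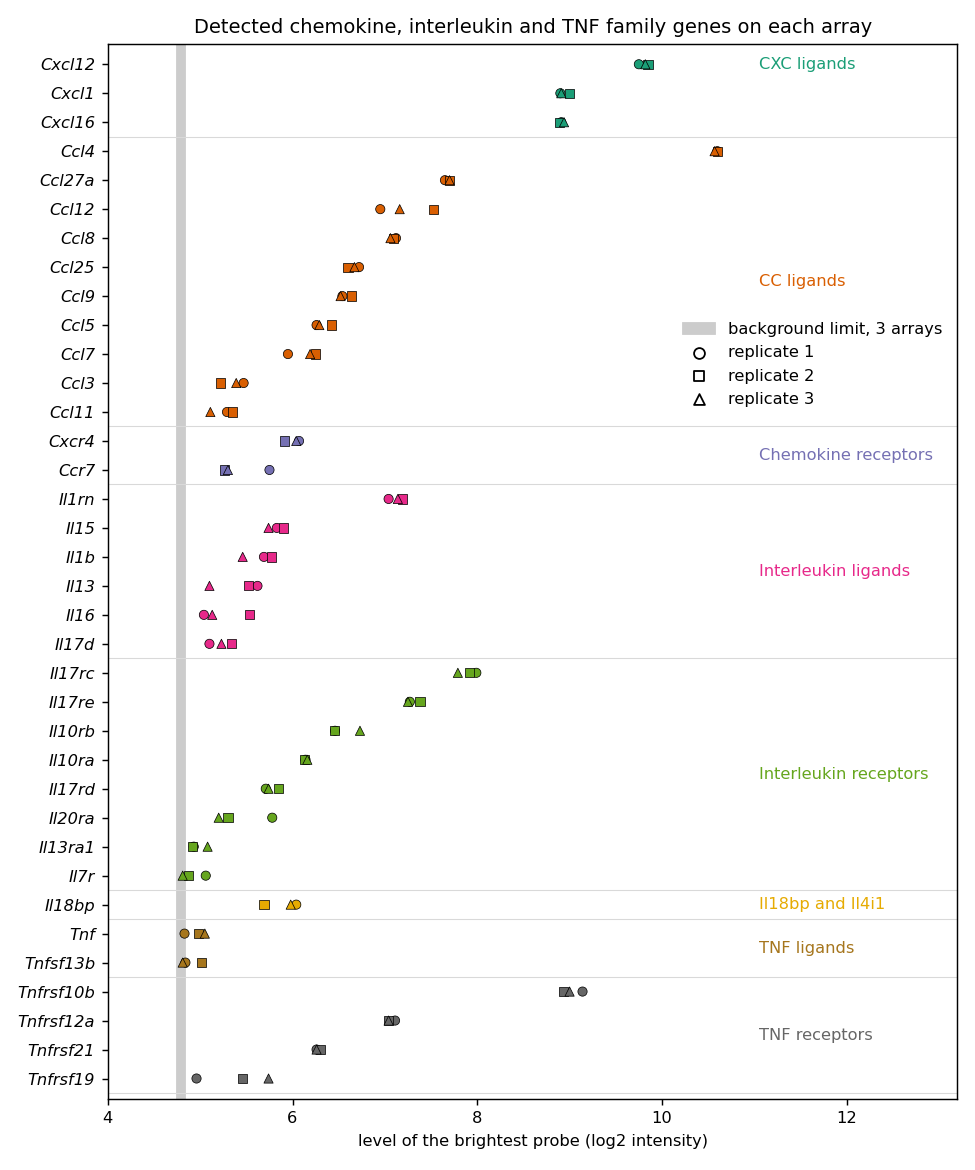
Level of the brightest probe (log2 intensity) of each of the 36 detected genes on the arrays of replicates 1 (circles), 2 (squares) and 3 (triangles), grouped by role, with the background limits of the 3 arrays (4.75 to 4.83) as a grey band. Ccl4, Cxcl12, Tnfrsf10b, Cxcl1 and Cxcl16 lie above 8, and Tnf, Tnfsf13b and Il7r touch the band.

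Among chemokine receptors, Cxcr4 and Ccr7 were detected and 14 genes were on no array above background. Cxcr4, the receptor of Cxcl12, read 6.07, 5.91 and 6.04. Ccr7, which guides dendritic cells and T cells to lymph nodes, read 5.75, 5.26 and 5.30, highest on replicate 1. The receptors of inflammatory leukocytes were at background: Ccr1 (4.28 ± 0.031), Ccr2 (4.27 ± 0.014), Cxcr1 (4.38 ± 0.059) and Cxcr2 (4.34 ± 0.027, 2 probes).

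Among interleukin ligands, the interleukin 1 family gave 2 detected genes with opposite roles. Il1rn, which encodes the natural antagonist of the interleukin 1 receptor, read 7.04, 7.19 and 7.14 on 1 of its 3 probes. Il1b, which encodes the inflammatory interleukin 1 beta, read 5.69, 5.77 and 5.46. Il1a (4.47 ± 0.11), Il18 (4.39 ± 0.038) and Il33 (4.68 ± 0.14) were on no array above background, and Il1f10 on 1, replicate 3. Il15, a growth factor of natural killer and memory T cells, read 5.83, 5.90 and 5.74. Il13, a cytokine of type 2 immunity, read 5.62, 5.52 and 5.10 and was lowest on replicate 3. Il16, which attracts CD4+ cells, read 5.04, 5.53 and 5.13, and Il17d, a member of the interleukin 17 family, 5.10, 5.34 and 5.23. These last 2 calls were lost at a detection p threshold of 0.01.

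Several well-known interleukins were at background, in contrast to Il1b and Il13. Il6 read 4.82, 4.45 and 4.63, Il10 read 4.37 ± 0.029, Il12a 4.39 ± 0.032 and Il34, a ligand of the macrophage receptor Csf1r, 4.34 ± 0.048. Of cytokines that T cells make, Il3, Il4, Il5, Il9, Il17a, Il17f, Il21 and Il22 were on no array above background, while Il13, which is encoded beside Il4 and Il5, was detected on all 3. Il7, a lymphocyte growth factor, was above it on 1 array. Il12b had no probe with its name.

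Of the 8 detected interleukin receptor chains, 3 belonged to the interleukin 17 family. Il17rc, which pairs with Il17ra, read 7.99, 7.92 and 7.79 on its brightest probe, and its 3 probes were all detected. Il17re, the receptor chain for Il17c, read 7.27, 7.38 and 7.25, and Il17rd, which also restrains growth factor signalling, 5.71, 5.85 and 5.74. The shared chain Il17ra (4.28 ± 0.043) and the chain for Il25, Il17rb (4.53 ± 0.053), were at background. Both chains of the interleukin 10 receptor were detected, Il10ra at 6.14, 6.13 and 6.16 and Il10rb, which interleukin 22 and interferon lambda receptors share, at 6.46, 6.45 and 6.73. Il20ra read 5.78, 5.30 and 5.20, Il13ra1 read 4.93, 4.92 and 5.08, and Il7r 5.06, 4.87 and 4.81; the calls of Il13ra1 and Il7r were lost at a detection p threshold of 0.01. Il18bp, a secreted protein that neutralises interleukin 18, read 6.04, 5.69 and 5.98, and the amino acid oxidase gene Il4i1 was at background.

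Receptor chains for interleukin 1 and interleukin 6 were not detected on all arrays. Il1r1 (4.56 ± 0.076, 2 probes), the decoy receptor gene Il1r2 (4.38 ± 0.058) and the accessory chain Il1rap (4.54 ± 0.17, 6 probes) were on no array above background. Il6ra was at background (4.52 ± 0.051), and Il6st, the gp130 chain that the interleukin 6 family shares, was above it on replicates 2 and 3 (4.65, 5.25 and 5.03). Il1rl2 and Il3ra were above background on 2 arrays each and Il27ra on 1. Il22ra1, which acinar cells are known to use to respond to interleukin 22, read 4.51 ± 0.074, at background. Il2rg had no probe with its name.

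Of the TNF superfamily ligands, Tnf and Tnfsf13b were detected, both next to the limit. Tnf read 4.83, 4.98 and 5.05, with detection p-values of 0.0489, 0.0138 and 0.01. Tnfsf13b, which encodes the B cell survival factor BAFF, read 4.84, 5.01 and 4.81, with detection p-values of 0.0489, 0.0125 and 0.0276. At a threshold of 0.01 neither was called, so the count of detected TNF ligands was 0 of 12. Tnfsf11, which encodes the osteoclast factor RANKL, was above background on replicates 1 and 2 (4.85, 4.91 and 4.70). Tnfsf10, which encodes the death ligand TRAIL (4.63 ± 0.12), and Tnfsf12, which encodes TWEAK (4.28 ± 0.031), were on no array above background.

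Of the TNF receptors, 4 were detected. Tnfrsf10b, the mouse death receptor for TRAIL, read 9.14, 8.93 and 9.0 on its brightest probe. Tnfrsf12a, also known as Fn14, the receptor for TWEAK and a gene of injured epithelia, read 7.11, 7.04 and 7.04. Tnfrsf21, death receptor 6, read 6.26, 6.30 and 6.26. Tnfrsf19, also known as Troy, read 4.96, 5.46 and 5.74, lowest on replicate 1 and highest on replicate 3, and its call was lost at a threshold of 0.01. The receptors of TNF itself, Tnfrsf1a (4.41 ± 0.046, 3 probes) and Tnfrsf1b (4.38 ± 0.028, 2 probes), and the RANKL decoy Tnfrsf11b (4.36 ± 0.10) were at background. Tnfrsf11a, the RANKL receptor, was above background on replicates 2 and 3, and Tnfrsf9 and Tnfrsf25 on 1 array each.

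Ligands were also set beside their receptors. Of 47 measured pairs of a ligand with a receptor chain known to bind it, written down with these calls known, 2 had both genes detected: Cxcl12 with Cxcr4, and Il13 with Il13ra1, of which the Il13 pair was lost at a threshold of 0.01. In 16 pairs the ligand alone was detected and in 8 the receptor alone, and in 21 neither was. Many pairs share a gene and few genes of either kind were detected, so the count of 2 was not tested and shows no shortage of joint calls. Among relatives outside the rule, Cx3cl1 (5.26 ± 0.090) and its receptor Cx3cr1 (5.68 ± 0.093) were detected together. So were Osm and its receptor chain Osmr (5.45 ± 0.056), and Mif and Cd74, with Osm, Mif and Cd74 described further on. Other relatives were not: Fas was detected without Fasl, Cd40 without Cd40lg, and Ltbr without Lta or Ltb. Likewise, Csf3r was detected without Csf3, Csf2ra without Csf2 and Lifr without Lif, while neither Xcl1 nor Xcr1 was. The relatives were not among the 47 pairs, and no count of them was made. Of the 16 chemokine pairs, 10 had the ligand alone, such as Cxcl1 without Cxcr2, Cxcl16 without Cxcr6, Ccl7 and Ccl12 without Ccr2, Ccl25 without Ccr9 and Ccl27a without Ccr10. Receptors detected without the ligand included Tnfrsf10b without Tnfsf10, Tnfrsf12a without Tnfsf12, Il10ra without Il10, Il17re without Il17c and Ccr7 without Ccl19 or Ccl21a.

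Probes of the same gene often disagreed. Of the 17 detected genes with more than 1 probe, 13 also had a probe that was not detected (76.5%, against 80.3% of all detected genes with more than 1 probe). Cxcl12 had 5 probes. The platform annotation lists the bright one (9.81 ± 0.050) alone under 1 transcript of the gene. The other 4, listed under 2 further transcripts, read 4.30 to 4.77 and were above background on at most 1 array. Tnfrsf10b had 5 probes listed under the same transcript, of which 1 was detected (9.02 ± 0.11) and 4 were on no array above background. The Ccl4 probes, also listed under 1 transcript, read 10.59 ± 0.017 and 6.08 ± 0.050. Il17re gave 7.30 ± 0.072 and 5.81 ± 0.066 on its detected probes and 4.30 and 4.46 on the other 2. The other 10 genes with a detected and an undetected probe were Ccl11, Ccl25, Il15, Il17d, Il1rn, Il20ra, Il7r, Tnfrsf19, Tnfrsf21 and Tnfsf13b, each with 1 detected probe. Among their remaining probes, 1 of Ccl11 (4.89, 4.57 and 4.63) and 1 of Il15 (4.75, 4.83 and 4.61) were above background on 1 array, and the others on none. Ccl4, Ccl12, Ccl27a and Il17rc were detected on every probe, with the dimmer Ccl12 probe at 5.28, 5.62 and 5.65, also lowest on replicate 1. The stretch of transcript that each probe covers was not analysed here.

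**Figure D3:**
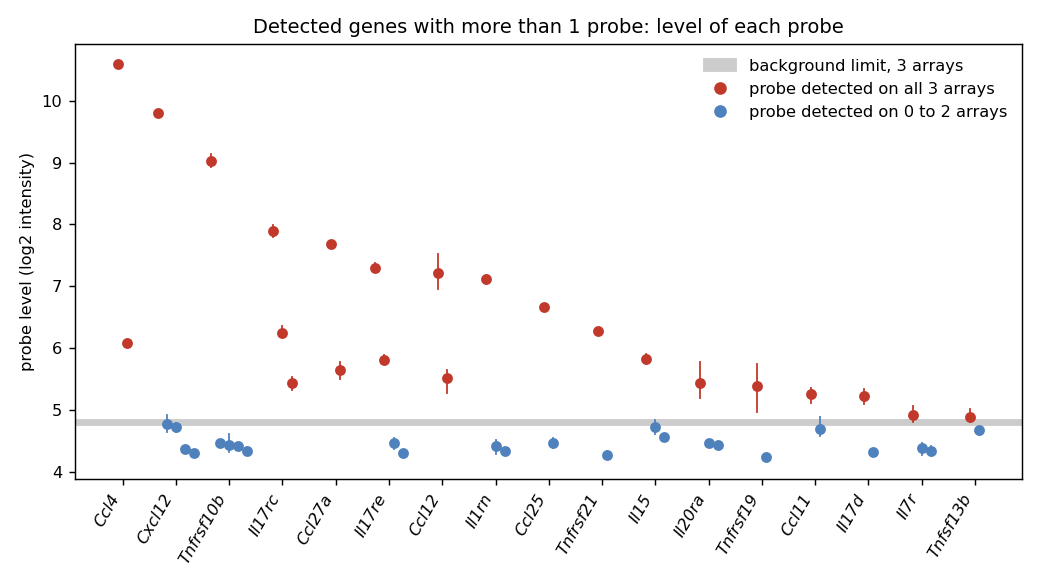
Level of every probe (log2 intensity; point, mean of 3 arrays; line, lowest to highest array) of the 17 detected genes with more than 1 probe, red where the probe was detected on all 3 arrays and blue otherwise, with the background limits as a grey band. For 13 of the 17 genes a blue probe stands beside a red one, as for Cxcl12 and Tnfrsf10b.

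The median spread between arrays was near that of all detected probes, while ranges over 0.5 log2 units made up a larger share. The median SD of the 42 detected probes was 0.0972 log2 units, beside 0.0872 for all 8486 detected probes. Below a level of 6 it was 0.13 for 20 probes of these families and 0.119 for 2860 of all detected probes, and from 6 upward it was 0.0634 for 22 and 0.0745 for 5626. Ranges over 0.5 log2 units were found for 4 of the 42 probes (9.52%, against 2.85% of all detected probes). These were Tnfrsf19 (0.78, highest on replicate 3), the brighter Ccl12 probe (0.58, highest on replicate 2), Il20ra (0.57) and Il13 (0.52), the last 2 highest on replicate 1. Of the brightest probes, 13, 16 and 7 were highest on replicates 1, 2 and 3, and their median deviations from the 3-array mean were -0.01, 0.03 and -0.02.

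A test of the spread called no probe of these families after adjustment. In limma, each probe's variance over the 3 arrays was set against the variance expected at its level, over all 8486 detected probes. That expectation was fitted to the same probes, and each had 3 values, so few calls could arise. The lack of calls is therefore no evidence of an even spread. After Benjamini-Hochberg adjustment 0 of 42 probes passed at 0.05, where the background was 0.0% of all probes (smallest adjusted p of the 42 in limma 0.874). At an unadjusted p under 0.05, 3 of the 42 passed (7.14%), beside a background of 4.8%. These were the brighter Ccl12 probe with an unadjusted limma p of 0.0082, Tnfrsf19 with 0.00953 and Il20ra with 0.0337. With median scaling in place of quantile normalization, Tnfrsf19 passed after adjustment, where 0.424% of all probes did.

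**Figure D4:**
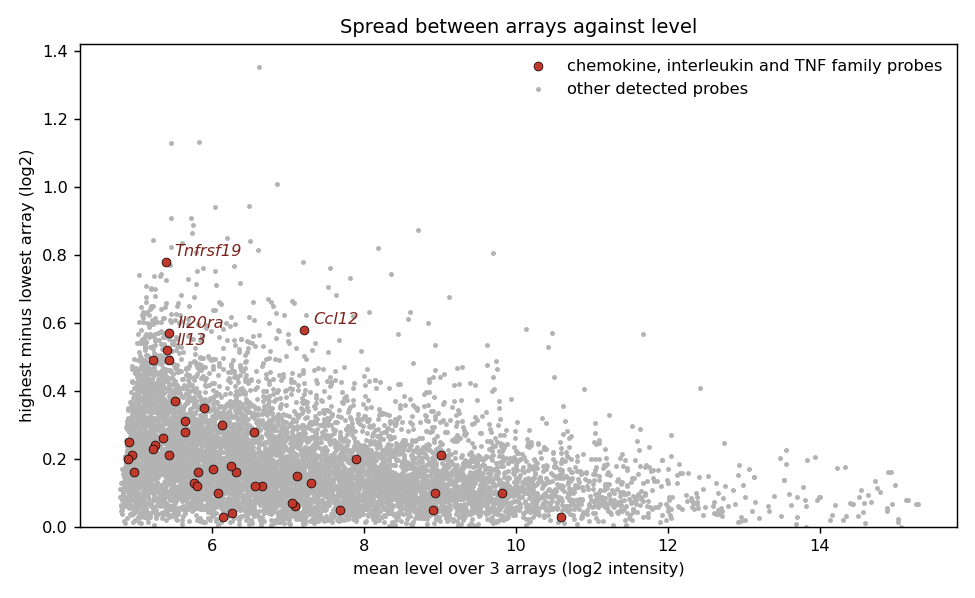
Highest minus lowest array (log2) against the mean level over 3 arrays (log2 intensity) for the 42 detected probes of these families (red) and the other detected probes (grey). Probes of low level have wider ranges in both sets; Tnfrsf19, Ccl12, Il20ra and Il13 exceed 0.5.

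Genes that carry signals from these receptors inside the cell were detected more broadly than the ligands and receptors. Of the NF-kB and TNF receptor signalling list 14 of 22 genes were detected (63.6%), of the interleukin 1 receptor signalling list 8 of 10 (80.0%), and of the Jak-Stat list 13 of 16 (81.2%), beside 40.9% of all genes. Rela, the main activating subunit of NF-kB, read 10.17 ± 0.043, Nfkbiz, an inducible co-factor of NF-kB, 9.72 ± 0.050, and Traf6, the adaptor of the interleukin 1 and 17 receptors, 8.48 ± 0.058. Fadd, the adaptor of death receptors such as the one Tnfrsf10b encodes, read 7.93 ± 0.099. Myd88, the adaptor of interleukin 1 and Toll-like receptors, read 9.49 ± 0.050, and Casp1, the protease that matures interleukin 1 beta, 7.11 ± 0.013, while Nlrp3 (4.37 ± 0.085), a sensor that activates it, was at background. Stat3, the factor downstream of interleukin 6, 10 and 22, read 9.69 ± 0.031, and the feedback inhibitors Socs3, Cish and Socs2 read 9.28 ± 0.055, 9.49 ± 0.099 and 8.06 ± 0.17. Their relatives Socs4 and Socs5 read 5.55 ± 0.096 and 5.38 ± 0.093, and Socs1 (4.52 ± 0.185) was at background. Also on no array above background were Stat5b, Sigirr, Rel, Nfkbie, Ikbkb, Traf1, Traf5 and Birc3.

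Relatives whose symbols the rule does not take were detected for 17 of 39 genes (43.6%), close to the 40.9% of all genes. Osm, which encodes oncostatin M, a cytokine of the interleukin 6 family, read 8.04 ± 0.045. Mif, which encodes a widely expressed cytokine, read 13.07 ± 0.088, and Cd74, its receptor and the MHC class II invariant chain, 10.27 ± 0.035. Pf4, a CXC chemokine of platelets and megakaryocytes, read 6.73, 7.28 and 7.01. The brighter Ccl12 probe and Ccl7 had the same order over the arrays, while the dimmer Ccl12 probe was highest on replicate 3. Few orders of 3 arrays exist, and the shared order was not tested. Ebi3, a subunit of interleukins 27 and 35, read 6.45 ± 0.088, and Csf2ra, a chain of the receptor for granulocyte-macrophage colony-stimulating factor, 6.37 ± 0.25. The family's lymphocyte ligands Lta, Ltb, Cd40lg, Fasl and Xcl1 were on no array above background.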

How the data were processed

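Total RNA of 3 replicates of 1 group was read on Illumina MouseRef-8 v2.0 expression beadchips, per the labels' protocols. The deposited non-normalized table holds average bead intensities with detection p-values for every probe, per the file headers; its 3 intensity columns share 1 mean, so they had been scaled before deposit. The authors' processed intensities, in a second deposited table, are linear and quantile normalized, as their values show. For scanner software, the sources used here name none. Symbols came from the platform annotation: 23978 probes had 1 symbol, 0 had several and 1719 were unnamed here. By Entrez identifier 23962 matched RefSeq (GRCm38.p6), with 0 symbols changed. RefSeq lists 168 protein-coding genes under the rule, of which 15 had no probe of that symbol.

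Levels are log2 values computed from the deposited intensities by neqc in limma 3.58.1 (R 4.3.3), with negative controls inferred from the detection p-values, offset 16, brightest probe per gene. The spread test was an intercept fit with a trended prior variance in limma. On simulated data for 8486 probes, it recovered 72.5% of 200 probes given an SD of 1 log2 unit, with 0 false calls. The other simulated probes all had the same SD, whereas in the data the SD varied with level. The simulation therefore does not show how often the test finds a smaller spread or calls falsely in these data. Named were the members above background on any array, and a list of well-known cytokines and receptors; of signalling genes outside the rule, those with the smallest summed detection p. Genes named besides were chosen with their values known. Members, lists, pairs and motifs were chosen with earlier results of these data known. The number of arrays limits the precision. Alternatives are given in the closing section.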

Additional observations from a re-analysis of the deposited data

How the results depend on the processing

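No paired analysis was possible because the series has 1 group. Of 36 detected genes, 29 kept the call under a detection p threshold of 0.01, detection p-values adjusted within each array, 2 of 3 arrays, and each array left out; the 7 lost (Il13ra1, Il16, Il17d, Il7r, Tnf, Tnfrsf19 and Tnfsf13b) went under both of the first settings. With 2 of 3 arrays 6 genes gained it. The total was 29, 29 and 42 of 154 under these settings (all genes: 35.4%, 36.8% and 44.7%) and 38 without any 1 replicate (24.7%, against 43.1%, 41.8% and 41.7% of all genes). TNF ligands fell to 0 under the threshold of 0.01 and under adjusted detection p-values. With every probe of a gene required, 23 genes were detected (14.9%, against 28.3% of all genes). These included 3 interleukin ligands, 5 interleukin receptors, 1 TNF ligand and 1 TNF receptor. The rest were chemokine ligands, chemokine receptors and Il18bp. The median level of detected genes was 6.79 with the authors' processed intensities, 6.71 with an offset of 50, 6.55 at the threshold of 0.01 and 6.02 to 6.09 without 1 replicate; that of all detected genes was 7.31, 7.25, 7.24 and 6.78 to 6.82. The limma spread test called 1 probe with median scaling and 0 under the other alternatives. An unadjusted limma p under 0.05 was found for 2 to 6 of the 42 or 44 probes tested. With undetected probes tested as well, it was found for 10 of 216. Why these values moved was not tested beyond what each setting changes.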
